A study of Mus musculus with 8 samples.

Results

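The interaction of disulfiram (DSF) and lipopolysaccharide (LPS) is the change in the LPS response that comes with the drug. It was measured in iBMDM cells, an immortalized line of bone marrow-derived mouse macrophages of wild-type genotype, and it used 8 of the 8 libraries of the series. The libraries form a 2 by 2 design with 2 libraries in each of 4 groups. Control cells were given DMSO, the drug's solvent, for 0.5 h and then water for 4 h. The DSF group had 5 μM DSF in place of DMSO, and the LPS group 1 μg/ml LPS in place of water. The DSF+LPS group had both agents, with the drug given first. For each gene the interaction is the log2 LPS response with DSF (DSF+LPS minus DSF) minus the log2 LPS response without it (LPS minus control). The same number is the final-level part (DSF+LPS minus LPS) minus the baseline part (DSF minus control). A smaller fold can therefore come from a higher starting level, from a lower level after LPS, or from both, and the genes were sorted by which of these parts passed the test.

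LPS is a cell wall component of Gram-negative bacteria. Macrophages sense it through TLR4, which binds it together with MD-2, the product of Ly96, after the co-receptor CD14 has handed it over. The adaptor MyD88 leads from TLR4 to NF-kB and to cytokines, and the adaptor TRIF leads to type I interferon and to the interferon-stimulated genes. DSF, long used to treat alcohol dependence, blocks aldehyde dehydrogenase and reacts with thiol groups of proteins. The study asked whether the drug blocks the activation of TLR4 signalling by LPS, and the question here is for which genes the LPS response itself differed with the drug.

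All libraries come from 1 immortalized line. Samples are numbered within each group, and no label says that they are separate cultures. The p-values thus measure only how far these samples differ, and that spread may be technical. Totals ran from 17822041 to 21694922 counts. Genes with at least 1 count numbered 19779 to 20324 without the drug and 23416 to 25081 with it. The 10 most abundant genes took 4.85% to 5.14% of counts without DSF and 7.23% to 8.39% with it. None of the 10 macrophage markers was at 0 in all libraries, and they summed to 2827 to 3074 CPM (counts scaled to library size) without DSF and 2330 to 2605 CPM with it. Epithelial and endothelial markers summed to 19.7 to 21.1 CPM without DSF and 65.5 to 83.9 CPM with it, dendritic cell markers to 3.03 to 4.44 and 5.42 to 6.41 CPM, lymphocyte markers to 0.708 to 1.29 and 1.84 to 3.04 CPM, and fibroblast markers to 1.01 to 2.25 and 2.61 to 3.78 CPM. Neutrophil markers summed to 0.0561 to 0.663 CPM without DSF and 0.662 to 1.55 CPM with it. The part of these shifts in the results was not tested. Replicates of a group differed by more than sampling noise. Their median difference per gene was 0.12 on the log2 scale in control, 0.16 with DSF, 0.12 with LPS and 0.20 with both agents.

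With the drug, most of what LPS raised was raised less and much of what LPS lowered was lowered less. Of 2485 genes that rose with LPS alone, 1498 (60.3%) had an interaction called lower and 1 had one called higher. Of 2246 genes that fell with LPS alone, 1073 (47.8%) had an interaction called higher and 4 had one called lower. Among the 11573 genes with no call for LPS, 479 were called lower and 162 higher. The call for LPS shares libraries with the interaction, and sorting by it favours smaller responses among the genes called. A gene was called where the p of edgeR's quasi-likelihood test, adjusted over all genes by Benjamini-Hochberg, was under 0.05.

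Over all 16304 genes tested the interaction was called lower for 1981 (12.2%) and higher for 1236 (7.58%), with a median of -0.02 on the log2 scale. Without control replicate 1, control replicate 2 or LPS replicate 2 the calls higher were 773, 781 and 717, and without control replicate 1, DSF replicate 1 or LPS replicate 2 the calls lower were 1290, 1276 and 1269. Of the 3217 genes called either way (19.7%), 3216 kept the sign of the interaction for every choice of 1 library from each group. The calls came from these same libraries, so a kept sign follows largely from the call and is no separate support. The drug alone was the broader change: DSF minus control called 5049 genes higher (31.0%) and 4418 lower (27.1%), against 2485 (15.2%) and 2246 (13.8%) for LPS minus control. The LPS calls lower were 1421 without control replicate 2 and 1414 without LPS replicate 2. DSF+LPS minus LPS called 5497 genes higher (33.7%) and 5156 lower (31.6%). LPS on top of the drug, DSF+LPS minus DSF, called 901 genes higher (5.53%) and 1065 lower (6.53%), and 226 and 121 without DSF replicate 1. Scaling by library size alone, which moves the median LPS response of all genes from 0.02 to -0.13, gave 1614 and 3774 calls for LPS minus control and 464 and 2190 for DSF+LPS minus DSF. These comparisons share groups with each other and with the interaction, so their values stand side by side and are not independent evidence.

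The smaller rise of the 1498 genes (9.19% of genes tested) went with a lower final level more often than with a raised baseline. The final level was lower and the baseline not higher for 903 genes (5.54%). The baseline was higher and the final level not lower for 393 (2.41%), both parts were called for 196 (1.20%), and neither for 6 (0.0368%). The count by a higher baseline only was 253 without control replicate 1, and that by a lower final level only 584 without LPS replicate 2. By size of the estimates alone, the final-level part was the larger in 999 genes and the baseline part in 499. In the plot of the parts, the called genes therefore lie below the diagonal in separate sectors.

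**Figure D1:**
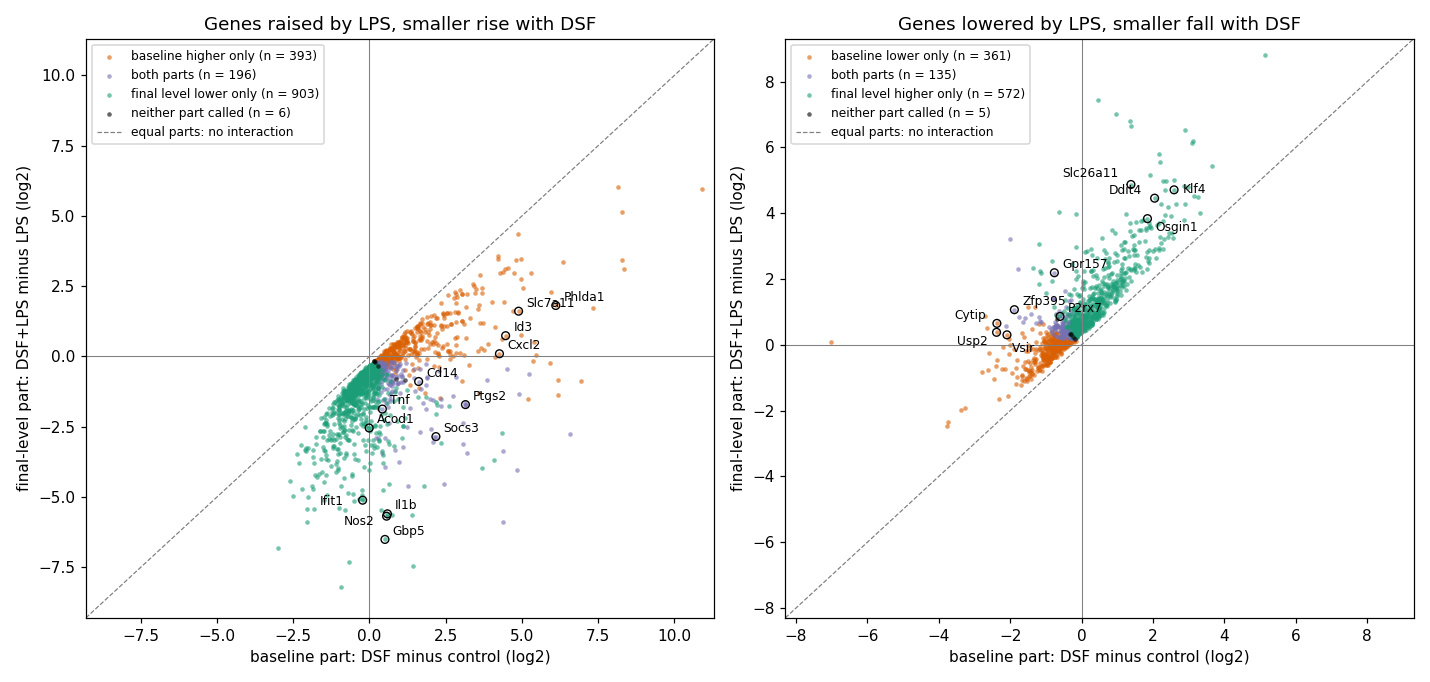
Baseline part (DSF minus control, x axis) against final-level part (DSF+LPS minus LPS, y axis), both as log2 fold changes from the edgeR fit, for 1498 genes with a smaller rise (left) and 1073 with a smaller fall (right). Each point is a gene coloured by the part that was called, open circles mark the named genes, and the dashed line is where the interaction is 0; in the left plot the genes with a lower final level only extend downward near a baseline part of 0, and those with a higher baseline only extend to the right.

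The sectors differed in what their genes did at each step. In the median gene with a lower final level only, LPS raised the level by 0.70 on the log2 scale without DSF and changed it by -0.09 with DSF, and the DSF+LPS level was 44.1% of the LPS level. The baseline of these 903 genes was called lower in 465 and not called in 438. In the median gene with a higher baseline only, LPS raised the level by 0.88 without DSF and by 0.10 with it, while the DSF+LPS level was 122% of the LPS level. Of those 393 genes, 205 had a final level called higher and 188 had none called. The 196 genes with both parts had the larger LPS response, with a median of 1.49 without DSF and 0.11 with it. These medians describe groups that were chosen by the same calls and carry no test.

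The log2 scale sets part of this picture. When the LPS response is taken as a difference in CPM, it was smaller with the drug for 1450 of the 1498 genes and larger for 48. All 48 belonged to the genes with a higher baseline only. For them the fold shrank although, by group means, LPS added more CPM than it did without the drug. The differences in added CPM were not tested.

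Genes with a raised baseline are shown by Cxcl2, which encodes a chemokine for neutrophils. Its level was 1.97 and 2.53 CPM in control, 41.1 and 46.3 CPM with DSF, 1532 and 1577 CPM with LPS alone, and 1445 and 1882 CPM with both. The libraries with LPS overlap between drug and no drug, and those without LPS do not. LPS raised it 684-fold without DSF and 38.1-fold with it, an interaction of -4.17 (SE 0.20, edgeR adjusted p = 2.33e-09). The baseline part was 4.26 and the final-level part 0.10 (adjusted p = 0.39). By group means LPS added 1553 CPM without the drug and 1620 CPM with it, and the SD of the DSF+LPS libraries was 309 CPM.

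Phlda1, a pleckstrin-homology domain gene known as an early response gene, ended higher with the drug. It had 0.724 and 0.959 CPM in control, 56.1 and 62.4 with DSF, 29.6 and 31.3 with LPS alone, and 101 and 113 with both. The drug alone thus gave a level above that of LPS alone in both libraries. The LPS fold went from 35.5 to 1.81 (interaction -4.30, SE 0.20), while the added CPM went from 29.6 to 47.8. Id3, an inhibitor of basic helix-loop-helix factors, had 0.931 and 1.53 CPM in control, 23.3 and 32.3 with DSF, 27.2 and 27.8 with LPS alone, and 57.5 and 34.2 with both (interaction -3.73, SE 0.38). Its 2 libraries with both agents differed more in CPM than those of any other group, and both were above the LPS libraries. Socs1, a feedback inhibitor of cytokine receptors, ended near the LPS level. Its values were 0.207 and 0.785 CPM in control, 4.26 and 5.73 with DSF, 8.89 and 8.75 with LPS alone, and 7.42 and 6.88 with both (interaction -3.55, SE 0.43, and -2.96 to -4.85 without control replicate 1 or 2).

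Stress-response genes were among them. Slc7a11, the cystine importer and a target of the factor NRF2, had 14.5 and 13.2 CPM in control, 440 and 382 with DSF, 125 and 135 with LPS alone, and 354 and 441 with both. The 2 groups with DSF overlap and stand above both LPS libraries. LPS raised it 9.39-fold alone, and the ratio with DSF was 0.967 (interaction -3.28, SE 0.15, adjusted p = 2.33e-09). Atf3, a stress-induced transcription factor, had 88.4 and 84.8 CPM in control, 546 and 700 with DSF, 224 and 213 with LPS alone, and 905 and 747 with both. Its fold went from 2.52 to 1.33 (interaction -0.93, SE 0.15) although LPS added 203 CPM with the drug against 132 CPM without it. Herpud1, which serves in the degradation of proteins from the endoplasmic reticulum, had 39.4 and 38.5 CPM in control and 69.5 and 94.0 with DSF. With LPS it had 111 and 106 CPM, and with both 129 and 98.0, so that the final levels overlap (interaction -1.01, SE 0.19, final-level adjusted p = 0.70).

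A lower final level only was called for Il1b, Nos2, Il6, Acod1, Ifit1 and Gbp5. Il1b, the cytokine interleukin-1 beta, had 0.310 and 1.61 CPM in control, 0.634 and 2.53 with DSF, 608 and 576 with LPS alone, and 10.7 and 13.9 with both. The groups without LPS overlap, and those with LPS lie far apart. With the drug the final level was 2.07% of that with LPS alone (final-level part -5.60). The interaction was -6.19 (SE 0.67, adjusted p = 1.09e-05). It ranged from -4.93 without DSF replicate 2 to -7.87 without control replicate 2, and the control libraries held 6 and 37 counts.

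Nos2, the inducible nitric oxide synthase, followed the same course. It had 0.0517 and 0.436 CPM in control, 0.272 and 0.516 with DSF, 114 and 113 with LPS alone, and 1.87 and 2.57 with both. The LPS fold was 427 without and 5.63 with DSF (interaction -6.24, SE 0.76, and -8.44 without control replicate 2). Il6, the cytokine interleukin-6, had 0 and 0.654 CPM in control, 0.317 and 0.620 with DSF, 151 and 158 with LPS alone, and 2.98 and 3.98 with both. Its interaction was -5.84 (SE 0.87), -4.97 without control replicate 1 and -11.69 without control replicate 2, which leaves a control library with 0 counts. Acod1 encodes the enzyme that makes itaconate. It had 15.2 and 17.7 CPM in control, 15.4 and 17.5 with DSF, 2273 and 2217 with LPS alone, and 302 and 469 with both. Its baseline part was -0.01 and its LPS fold 136 without and 23.5 with DSF (interaction -2.53, SE 0.23), so Acod1 kept a larger fold with the drug than Il1b, Nos2 or Il6.

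Interferon-stimulated genes lost nearly all of their LPS response. Ifit1, an antiviral RNA-binding protein, had 5.48 and 5.93 CPM in control, 4.89 and 4.91 with DSF, 233 and 214 with LPS alone, and 6.61 and 6.28 with both. With DSF and LPS together it stood at 2.89% of the level with LPS alone (interaction -4.89, SE 0.17, adjusted p = 2.18e-10). Gbp5, an interferon-induced GTPase, had 0.362 and 0.349 CPM in control, 0.362 and 0.671 with DSF, 56.8 and 54.1 with LPS alone, and 0.656 and 0.546 with both. Its fold went from 154 to 1.19 (interaction -7.02, SE 0.54), and its levels with DSF alone and with both agents overlap.

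The upstream regions of 4 of these genes are printed because the sectors hold different shares of promoters with an interferon or NF-kB motif, as given further on. Each is the RefSeq window on assembly GRCm38.p6 from 250 bases before to 50 bases after the gene's start, read 5′ to 3′ on the gene's strand, with the matches in capitals. The windows lie at chr19:34640639-34640938 (plus strand, Ifit1), chr3:142496684-142496983 (plus strand, Gbp5), chr5:90903649-90903948 (plus strand, Cxcl2) and chr5:92348840-92349139 (minus strand, Cxcl10).
Ifit1: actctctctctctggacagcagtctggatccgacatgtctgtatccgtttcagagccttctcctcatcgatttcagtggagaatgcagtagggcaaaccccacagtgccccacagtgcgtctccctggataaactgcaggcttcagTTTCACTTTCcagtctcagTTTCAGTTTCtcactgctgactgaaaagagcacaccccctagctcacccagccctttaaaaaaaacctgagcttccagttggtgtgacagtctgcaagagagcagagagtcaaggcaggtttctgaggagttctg
Gbp5: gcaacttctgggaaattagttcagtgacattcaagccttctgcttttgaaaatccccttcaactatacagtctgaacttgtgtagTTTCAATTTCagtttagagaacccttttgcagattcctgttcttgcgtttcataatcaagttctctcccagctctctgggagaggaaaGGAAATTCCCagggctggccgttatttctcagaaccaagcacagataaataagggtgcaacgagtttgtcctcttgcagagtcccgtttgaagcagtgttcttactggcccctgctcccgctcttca
Cxcl2: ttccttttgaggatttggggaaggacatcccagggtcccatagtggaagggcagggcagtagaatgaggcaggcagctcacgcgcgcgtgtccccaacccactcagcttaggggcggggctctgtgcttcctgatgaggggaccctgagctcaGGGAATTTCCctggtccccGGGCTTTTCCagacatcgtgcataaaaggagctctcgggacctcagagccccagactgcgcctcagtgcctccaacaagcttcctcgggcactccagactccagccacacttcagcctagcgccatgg
Cxcl10: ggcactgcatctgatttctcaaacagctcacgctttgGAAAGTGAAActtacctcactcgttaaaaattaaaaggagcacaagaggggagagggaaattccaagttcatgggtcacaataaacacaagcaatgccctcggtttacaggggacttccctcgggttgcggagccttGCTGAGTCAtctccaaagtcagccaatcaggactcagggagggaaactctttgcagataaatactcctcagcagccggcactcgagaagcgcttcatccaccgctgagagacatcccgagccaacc
Ifit1 holds 2 matches to the interferon-stimulated response element (ISRE) core, which is GAAA, any 2 bases and GAAA, beginning 104 and 85 bases before the start. Gbp5 holds 1 ISRE match and 1 match to the NF-kB motif, which is GGG, any 2 bases and TTTCC. Cxcl2 holds 2 NF-kB matches, 97 and 78 bases before its start, and no ISRE match. Cxcl10 holds 1 ISRE match and an AP-1 match (TGANTCA) that lies inside a match to the antioxidant response element (TGACNNNGC). A match is a run of letters and was not tested as a binding site. Only these letters were searched, so NF-kB sites with other letters would be missed, in Cxcl10 as elsewhere.

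Genes with both parts called include several classical LPS targets. Ptgs2, which encodes cyclooxygenase-2, had 13.7 and 12.1 CPM in control, 107 and 121 with DSF, 1186 and 1218 with LPS alone, and 349 and 385 with both. No group overlaps another. The baseline part was 3.15 and the final-level part -1.71, which gives an interaction of -4.86 (SE 0.12, adjusted p = 6.77e-12). Tnf, tumour necrosis factor, had 37.0 and 38.0 CPM in control, 46.3 and 54.6 with DSF, 833 and 850 with LPS alone, and 202 and 259 with both. Its baseline part was 0.42 and its final-level part -1.87, so that the final level carried most of the interaction of -2.29 (SE 0.15). In Cd14 the weights were turned round: 40.8 and 40.5 CPM in control, 131 and 117 with DSF, 324 and 306 with LPS alone, and 150 and 189 with both. Its baseline part of 1.61 was larger than its final-level part of -0.89 (interaction -2.50, SE 0.14).

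Socs3, a feedback inhibitor of signalling through STAT3, had 3.98 and 4.62 CPM in control, 17.7 and 21.6 with DSF, 264 and 242 with LPS alone, and 42.4 and 27.7 with both (interaction -5.03, SE 0.25). Mmp13, a collagenase, had 0.362 and 0.480 CPM in control, 2.99 and 4.24 with DSF, 83.8 and 87.8 with LPS alone, and 15.8 and 17.6 with both (interaction -5.41, SE 0.30). Both genes kept the order of the groups of Ptgs2. Cxcl10, a chemokine for T cells, ended at 98.9 and 90.4 CPM with both agents against 1009 and 885 CPM with LPS, from 11.7 and 12.2 CPM in control and 17.7 and 24.8 with DSF (interaction -4.15, SE 0.18). Il1a, interleukin-1 alpha, went from 0 and 0.523 CPM in control and 0.906 and 2.32 with DSF to 116 and 119 with LPS and 5.45 and 4.75 with both. Its interaction of -6.97 (SE 0.63) was -12.51 without control replicate 2. Cd69, an early activation antigen, had 0.880 and 0.697 CPM in control, 1.13 and 2.74 with DSF, 93.4 and 89.1 with LPS alone, and 5.15 and 2.24 with both (interaction -5.88, SE 0.55).

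For 2 secreted factors the control libraries held 0 counts. Il12b, a subunit of interleukin-12, had 8.20 and 8.27 CPM with LPS and 0.0505 and 0.218 CPM with both agents, and DSF alone gave 0.0453 and 0.207 CPM. LPS alone raised it at least 116-fold, computed against 3 counts over the control group. Csf2, a growth factor of granulocytes and macrophages, rose at least 104-fold, with 6.73 and 7.98 CPM with LPS and 0.858 and 0.546 with both. Both lost the call of the interaction without DSF replicate 2 (adjusted p = 0.051 and 0.103).

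**Figure D2:**
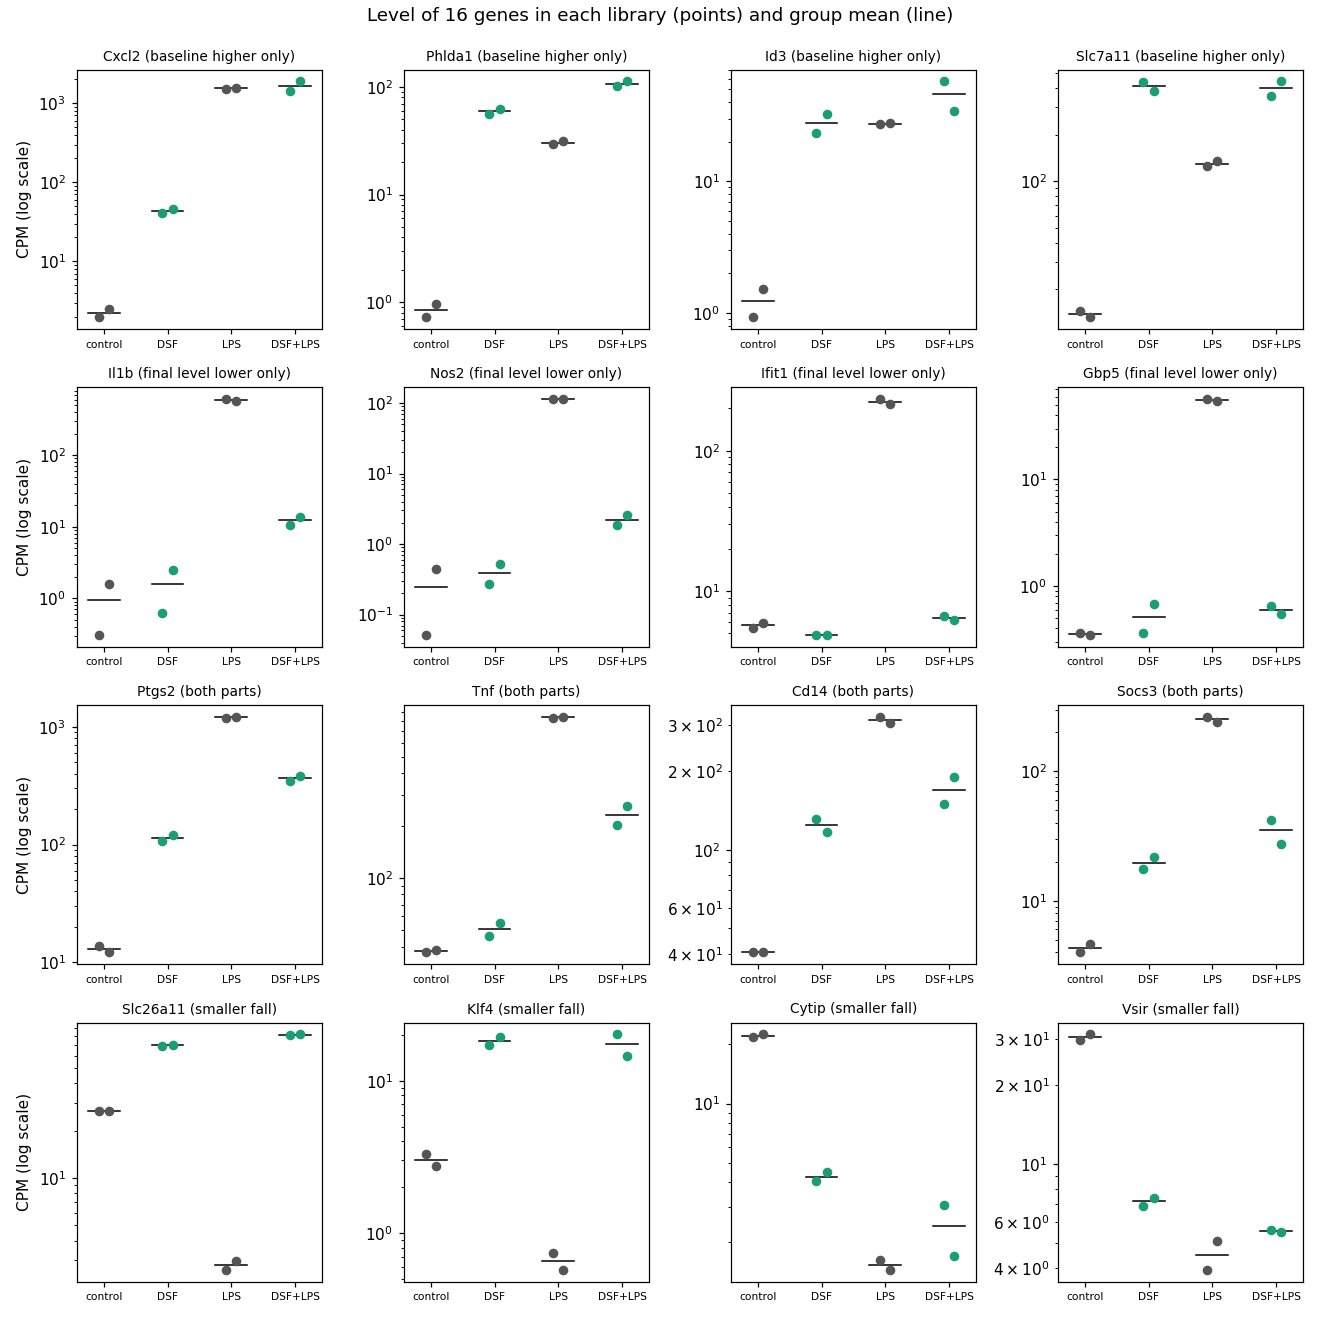
Level of 16 genes in CPM on a log axis, with the 2 libraries of each group as points (grey without DSF, green with DSF) and the group mean as a line; the top 3 rows are genes with a smaller rise and the bottom row genes with a smaller fall. In the first row the control and DSF groups lie apart, with DSF+LPS also above LPS for Phlda1, Id3 and Slc7a11. In the second row the LPS and DSF+LPS groups lie far apart, while control and DSF lie close or overlap. In the third row both pairs lie apart, with DSF above control and DSF+LPS below LPS. In the bottom row Slc26a11 and Klf4 stay high with the drug, and Cytip and Vsir are already low with DSF alone.

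The gene lists divided by role. Of 46 interferon-stimulated genes tested, all 46 rose with LPS and 45 had an interaction called lower. The share called lower was 60.3% among all genes that rose with LPS alone and 12.2% among all genes tested. The list's median interaction was -2.68, against -0.02 over all genes tested. A lower final level only was called for 40 of the 45 and both parts for 5 (Isg20, Rsad2, Mx1, Mx2 and Slfn4; 3 without control replicate 2 or DSF replicate 2). None had a higher baseline only, and Tgtp1 was not called. The median LPS response of the list was 2.54 without DSF and -0.01 with it. Its median baseline part was -0.54 and its median final-level part -3.44, so a lower final level only does not mean an unchanged baseline. Ifit3b ended at 3.68% of its level with LPS alone (interaction -5.21, SE 0.43).

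Of 14 chemokines 13 rose with LPS and 11 of these were called lower (median -3.14), beside 60.3% of all genes that rose with LPS. A lower final level only was called for 7 of the 11, beside 903 of 1498 among all smaller rises, both parts for 3 (Ccl3, Ccl7 and Cxcl10) and a higher baseline only for Cxcl2. Ccl7, a monocyte chemokine, had 13.7 and 14.1 CPM in control, 20.2 and 19.5 with DSF, 446 and 365 with LPS alone, and 26.4 and 27.0 with both (interaction -4.44, SE 0.15). Of 23 antigen presentation and costimulation genes 20 rose with LPS and 11 of these were called lower (median -0.61), beside 60.3% of all genes that rose with LPS. The 11 were 9 by a lower final level only and 2 by both parts (B2m and Cd40), beside 903 and 196 of 1498 among all smaller rises. Both parts were called for 1 without DSF+LPS replicate 2. Tap1, a peptide transporter subunit, had 38.1 and 37.6 CPM in control, 21.4 and 22.4 with DSF, 128 and 113 with LPS alone, and 21.2 and 18.3 with both. It rose 3.19-fold with LPS alone and had a ratio of 0.905 with DSF (interaction -1.82, SE 0.14). The costimulator gene Icosl had an LPS fold of 4.14 alone and 1.07 with DSF (interaction -1.95). Cd40, a costimulatory receptor, had a raised baseline as well (1.90) and ended at 58.7% of its LPS level (interaction -2.67).

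Cytokines, and effector enzymes with acute-phase genes, were mixed. Of 20 cytokines 15 were called lower (median -2.94), all among the 18 that rose with LPS, and Vegfa higher. The shares over all genes were 12.2% lower and 7.58% higher, and 60.3% lower among genes that rose with LPS. All 1498 smaller rises held 903 by a lower final level only, 393 by a higher baseline only and 196 by both parts. Among the cytokines a lower final level only was called for 5 (Il1b, Il6, Ebi3, Il18 and Csf3) and a higher baseline only for 3 (Il10, Csf1 and Osm). Both parts were called for 7, and for 3 without DSF replicate 2. Of 23 effector and acute-phase genes 19 were called lower and Plau higher, with a median of -2.59, or -2.53 when genes with no control counts are set to their lower bound. These split into 9 by a lower final level only, 5 by a higher baseline only (Gch1 and Mmp9 among them) and 5 by both parts. The split by both parts was 3 without control replicate 1 and 8 without DSF+LPS replicate 1.

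NF-kB genes and its feedback inhibitors had smaller interactions. Of 27 tested, 25 rose with LPS and 17 of these were called lower (median -0.92), beside 60.3% of all genes that rose with LPS. A lower final level only was called for 9, both parts for 5 (Nfkbiz, Traf1, Zc3h12a, Socs3 and Peli1) and a higher baseline only for 3 (Zfp36, Dusp16 and Cflar). Among all 1498 smaller rises these splits held 903, 196 and 393 genes. Traf1, an adaptor of tumour necrosis factor receptors, had 3.26 and 2.75 CPM in control, 20.5 and 22.4 with DSF, 184 and 168 with LPS alone, and 96.3 and 115 with both (interaction -3.58, SE 0.18). Nfkbiz, a nuclear cofactor of NF-kB, ended at 60.2% of its LPS level, from a baseline part of 1.90 (interaction -2.63, SE 0.13). The list kept part of its LPS response with the drug, with a median of 0.84 against 1.86 without it.

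Of 24 TLR4 complex and proximal signalling genes 7 were called lower, Cd14 among them, and 1 higher (median -0.19), against 12.2% and 7.58% of all genes. The final level was called lower for 14 and higher for 4, against 31.6% and 33.7% of all genes. Traf3, the 1 with an interaction called higher, lost its call without any 1 control, DSF or LPS library. Tlr4 had 38.3 and 41.2 CPM in control, 33.5 and 31.1 with DSF, 24.8 and 20.1 with LPS alone, and 21.1 and 20.5 with both. Its interaction of 0.19 (SE 0.16, adjusted p = 0.469) did not pass the test. Ly96 had 2.95 and 2.40 CPM in control, 8.06 and 8.11 with DSF, 2.55 and 3.25 with LPS alone, and 8.02 and 6.98 with both. Its interaction of -0.23 (SE 0.30, adjusted p = 0.657) did not pass either, and its level followed the drug alone. Irak3, an inhibitory kinase-like protein of the pathway, rose 6.39-fold with LPS and 1.34-fold with both, with no call at baseline (interaction -2.25, SE 0.17). The kinase gene Irak2 went from a fold of 4.61 to 1.52 (interaction -1.60, SE 0.12).

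Immediate early genes held the opposite split to the interferon-stimulated genes. Of 23 tested, 12 were called lower and 2 higher (Klf4 and Ier5; 4 without DSF+LPS replicate 2), against 12.2% and 7.58% of all genes. The 12 were among the 14 members that rose with LPS. The median was -0.91, or -0.60 when the gene with no counts in a group is set to its bound. Of the 12, 11 had a higher baseline only and Ier3 had both parts. None had a lower final level only. The final level of the list was called higher for 19 of 23 and lower for 1, against 33.7% and 31.6% of all genes. Egr1, a zinc finger transcription factor, had 0.362 and 0.392 CPM in control, 95.6 and 121 with DSF, 2.50 and 1.58 with LPS alone, and 157 and 109 with both. Its interaction of -2.11 (SE 0.54, adjusted p = 0.0126) lost the call without either control library or without LPS replicate 1 (adjusted p = 0.067, 0.070 and 0.079). Myc, a growth regulator, had 2 and 0 counts in control, so no fold is given. It stood at 2.40 and 1.96 CPM with DSF, 4.47 and 3.68 with LPS alone, and 3.43 and 3.93 with both, and the last 2 groups overlap.

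The stress lists had a smaller share of members called than the immediate early genes. Of 31 genes of the unfolded protein and integrated stress responses, LPS raised 14. An interaction was called lower for 6, all 6 by a higher baseline only, and higher for 1, against 12.2% and 7.58% of all genes. The 6 were among the 14 that rose, beside 60.3% called lower among all genes that rose with LPS alone. The calls higher were 3 with DESeq2 or library size alone, 4 without the count filter, and 2, 2, 3 and 6 without DSF replicate 2, LPS replicate 1, DSF+LPS replicate 1 and DSF+LPS replicate 2. Of 28 NRF2 targets 8 were called lower (5 without control replicate 2 or DSF replicate 1) and 4 higher. Of the 7 with a smaller rise, 5 had a higher baseline only (Slc7a11, Txnrd1, Sqstm1, Fth1 and Abcc1; 3 without control replicate 2, DSF replicate 1, LPS replicate 1 or DSF+LPS replicate 1), 1 a lower final level only (Nfe2l2) and 1 both parts (Gsr). Without control replicate 2 or DSF replicate 1, and with library size alone, those last 2 counts were 2 and 0. Gsr, glutathione reductase, had 105 and 100 CPM in control, 140 and 126 with DSF, 188 and 186 with LPS alone, and 114 and 157 with both (interaction -0.84, SE 0.16). Of 20 heat shock genes 4 were called lower and 3 higher, beside the same 12.2% and 7.58% of all genes. These 7 changed with single libraries: the calls higher ran from 0 to 6 and those lower from 1 to 3. Hspa1b had 14.1 and 19.3 CPM in control, 8593 and 11043 with DSF, 15.8 ± 1.15 with LPS (mean, SD, n = 2), and 17986 and 13407 with both. Its interaction of 0.76 (SE 0.22) lost the call with DESeq2 and without control replicate 2, DSF replicate 1 or either LPS library (adjusted p from 0.051 to 0.201), and its counts may hold reads of the near-identical Hspa1a.

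**Figure D3:**
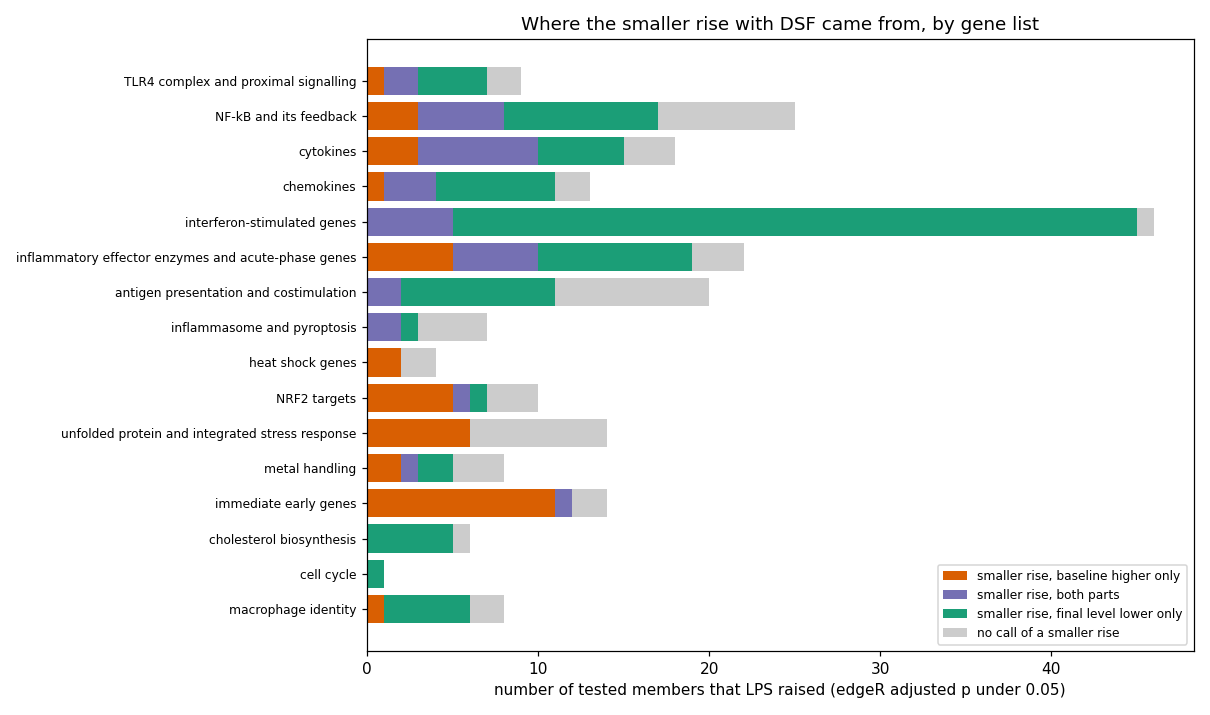
Number of tested members of each of 16 gene lists that LPS raised (edgeR adjusted p under 0.05), split by the part called where the rise was smaller with DSF and with the other members in grey. Interferon-stimulated genes are 40 of 46 by a lower final level only, and immediate early genes 11 of 14 by a higher baseline only.

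For the remaining lists the shares over all genes were again 12.2% called lower and 7.58% higher. Inflammasome and pyroptosis genes had 4 of 17 called lower and 2 higher (1 without control replicate 1 or any 1 DSF or LPS library). Nlrp3, the sensor of the inflammasome, had 49.2 and 47.9 CPM in control, 80.7 and 74.6 with DSF, 620 and 616 with LPS alone, and 208 and 271 with both (interaction -2.05, SE 0.14). Casp4, the caspase that binds LPS inside the cell, rose 7.88-fold alone and 2.34-fold with the drug (interaction -1.76, SE 0.20). P2rx7, an ATP-gated channel that can trigger the inflammasome, fell to 0.337 of control with LPS alone and stood at 0.931 of DSF with both (interaction 1.47, SE 0.26). Cholesterol biosynthesis genes had 6 of 22 called lower (3 without DSF replicate 1) and 2 higher (Mvd and Dhcr7), with 5 smaller rises, all by a lower final level only. The rises were 3 without control replicate 1, DSF replicate 1 or either LPS library. The list's median baseline part was -1.36 and its median final-level part -1.41, so its median gene was lower with the drug both without LPS and with it. Hsd17b7, a sterol reductase, had 60.0 and 60.6 CPM in control, 24.0 and 21.4 with DSF, 101 and 106 with LPS alone, and 18.5 and 21.1 with both (interaction -0.98, SE 0.14). The cell cycle list ran the other way, with 9 of 30 called higher (against 7.58% of all genes) and 5 lower, of which 1 to 3 were left under 11 of the alternatives. E2f1, an S-phase transcription factor, had 75.6 and 66.5 CPM in control, 70.9 and 74.1 with DSF, 45.1 and 51.0 with LPS alone, and 77.3 and 84.0 with both (interaction 0.72, SE 0.13).

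**Figure D4:**
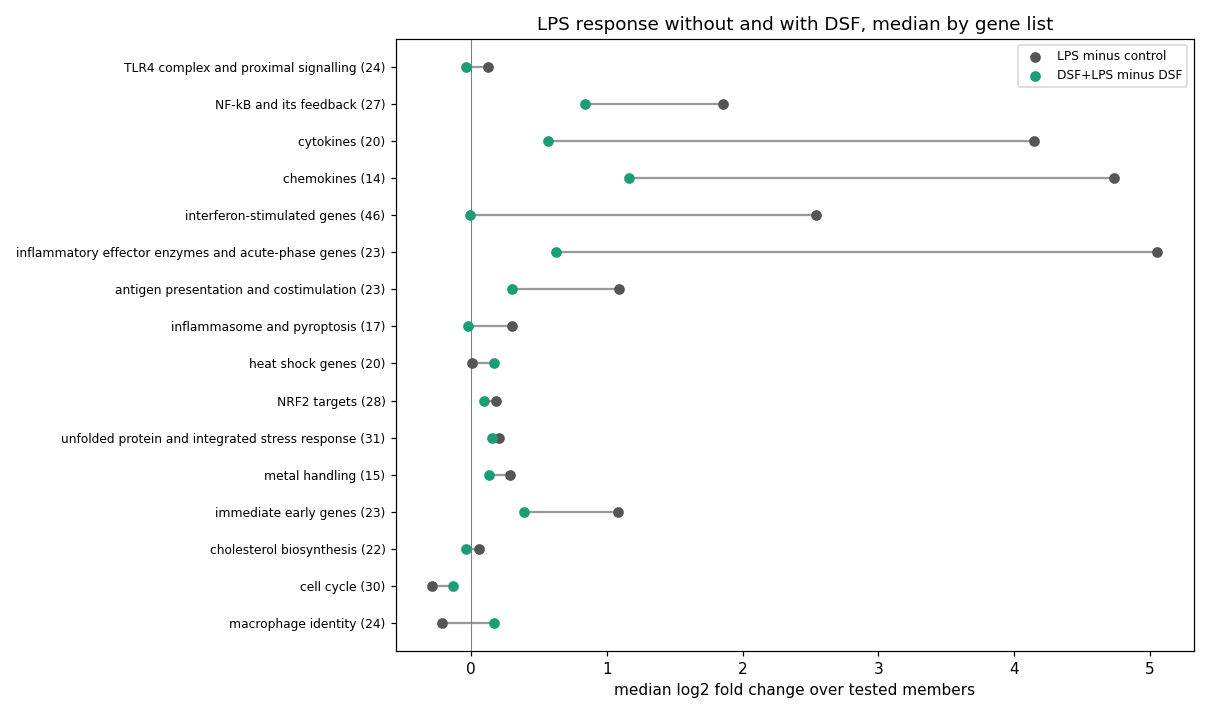
Median log2 LPS response of the tested members of each list without DSF (grey) and with DSF (green), with the number of members tested in parentheses. The grey points of cytokines, chemokines, interferon-stimulated genes and effector genes lie between 2.54 and 5.05 and their green points between -0.01 and 1.16; when genes with no control counts are set to their lower bound, the grey point of the effector genes would be at 3.23.

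The 1073 genes with a smaller fall (6.58% of genes tested) mirrored the smaller rises. The final level was higher and the baseline not lower for 572 (3.51%), the baseline lower and the final level not higher for 361 (2.21%), both for 135 (0.828%) and neither for 5 (0.0307%). Without control replicate 1, control replicate 2 or LPS replicate 2 the count by a lower baseline only was 216, 203 and 223, and without LPS replicate 2 the count by a higher final level only was 336 and that by both 89. The baseline of the 572 was called higher in 301. For the 361, the final level was called lower as well in 117. By size of the estimates, the final-level part was the larger in 641 genes and the baseline part in 432.

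Slc26a11, an anion transporter, shows a level kept up by the drug. It had 26.8 and 26.9 CPM in control, 69.5 and 70.4 with DSF, 2.60 and 2.96 with LPS alone, and 81.4 and 82.2 with both. LPS alone took it to 0.104 of control, and on top of DSF the ratio was 1.17 (interaction 3.49, SE 0.15, adjusted p = 9.27e-10). Klf4, a Krüppel-like transcription factor, had 3.31 and 2.75 CPM in control, 17.1 and 19.4 with DSF, 0.736 and 0.574 with LPS alone, and 20.1 and 14.4 with both (interaction 2.12, SE 0.36). Its 2 groups with DSF overlap and lie above both others. Ddit4, an inhibitor of mTORC1 signalling, fell to 0.225 of control with LPS alone and had a ratio of 1.20 with the drug (interaction 2.41, SE 0.26). Osgin1, an oxidative stress gene, had the same direction (interaction 1.99, SE 0.15).

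A lower baseline only marked genes that the drug had already brought down. Cytip, a scaffold protein of lymphoid and myeloid cells, had 21.7 and 22.4 CPM in control, 4.03 and 4.49 with DSF, 1.62 and 1.43 with LPS alone, and 3.08 and 1.69 with both (interaction 3.02, SE 0.34). Its 2 groups with LPS lie apart by a little, and the final-level part did not pass the test (adjusted p = 0.054). Vsir, an inhibitory immune checkpoint, had 29.8 and 31.3 CPM in control, 6.93 and 7.44 with DSF, 3.93 and 5.07 with LPS alone, and 5.60 and 5.51 with both (interaction 2.39, SE 0.22). Cyp2s1, a cytochrome P450, and Usp2, a deubiquitinase, shared this pattern, with interactions of 3.16 (SE 0.39) and 2.76 (SE 0.32). Both parts were called for Zfp395, a zinc finger protein, with 28.5 and 33.6 CPM in control, 8.65 and 8.21 with DSF, 2.26 and 2.77 with LPS alone, and 5.70 and 4.86 with both (interaction 2.95, SE 0.24).

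Macrophage identity genes were split between both directions. Of 24 tested, 9 were called higher and 6 lower (median 0.32), against 7.58% and 12.2% of all genes. These held 6 smaller rises and 7 smaller falls. The calls higher fell to 4 without either control library or without DSF replicate 1 and to 5 without either LPS library. Cebpa, a factor of myeloid differentiation, had 7.14 and 8.59 CPM in control, 11.2 and 12.6 with DSF, 2.06 and 3.06 with LPS alone, and 13.6 and 11.6 with both (interaction 1.70, SE 0.27). Its 2 groups with DSF overlap and lie above all libraries without it.

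Among genes called for LPS alone, a response made larger by the drug was almost absent. LPS minus control chose these genes and enters the interaction with a minus sign, so the choice itself favours smaller responses. Genes with no call for LPS alone are outside this count. Of those with a called interaction, 308 fell and 83 rose with LPS after the drug. Only 1 gene, which has no symbol, had a larger rise and 4 had a larger fall (0.00613% and 0.0245% of genes tested): Arhgap5, Hmgb1, Kif20b and Eid1. Each of the 4 lost its call of the interaction without DSF replicate 1 (adjusted p from 0.071 to 0.136). Kif20b, a kinesin of cell division, had 95.5 and 97.8 CPM in control, 56.4 and 48.1 with DSF, 72.5 and 74.2 with LPS alone, and 28.5 and 25.6 with both (interaction -0.55, SE 0.13).

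For 180 genes the LPS response was called in opposite directions without and with DSF. Of these, 141 rose with LPS alone and fell with LPS after the drug, and 39 did the reverse. The count ran from 13 without DSF replicate 1 to 248 without DSF+LPS replicate 2, and the part of DSF replicate 1 in it was not tested. The count was 67, 85, 87 and 60 without control replicate 1, control replicate 2, LPS replicate 1 and LPS replicate 2. Tfrc, the transferrin receptor, had 304 and 315 CPM in control, 358 and 354 with DSF, 547 and 571 with LPS alone, and 304 and 307 with both (interaction -1.08, SE 0.09). It rose 1.81-fold with LPS alone and had a ratio of 0.857 with the drug. Slc39a14, a zinc and iron importer, went from 1.81 to 0.842 in the same way (interaction -1.10, SE 0.11). Metal handling genes as a list had 6 of 15 called lower and 2 higher (median -0.28), against 12.2% and 7.58% of all genes.

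Promoter motifs were counted in the sectors of smaller rises. Of 16299 tested genes with a distinct symbol, 10474 had a RefSeq window of the kind printed above, and the ISRE core was found on either strand in a window of 3.89% of them. It was found in 11.54% of 667 genes with a lower final level only, 5.52% of 290 with a higher baseline only and 6.67% of 135 with both parts. The NF-kB motif was found in 2.12% of all, and in 3.60%, 4.83% and 4.44% of the 3 sectors in that order. AP-1 was found in 6.78% of all and in 7.50%, 9.66% and 11.85%. The antioxidant response element, which can overlap AP-1, was found in 16.96% of all and in 16.79%, 20.69% and 25.93%. The heat shock element (GAA, any 2 bases, TTC, any 2 bases, GAA) was found in 0.59% of all and in 0.45%, 0.69% and 0.74%. These shares are descriptions with no test, and the windows cover a short stretch next to each start. Each motif was searched in 1 form only, so sites with other letters are not counted.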

How the data were processed

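The authors deposited 1 table of raw counts, whole reads per gene and not normalized, for all 8 libraries. The submitters' processing notes name the build GRCm39 and DESeq2, with no role. Alignment, counting, gene annotation and strand handling: not given in the sources used here. Near-identical, overlapping or antisense genes may therefore share counts. Of 55414 gene identifiers 52081 matched a symbol in the GENCODE M21 reference.

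Counts were tested with edgeR 4.0.16 in R 4.3.3 (quasi-likelihood F-test, TMM scaling, filterByExpr with a minimum count of 10 and a minimum total of 15, group means only). 16304 genes stayed, 387 of them among the 408 symbols of the 16 pathway lists. CPM use the TMM-scaled library sizes, except sums over markers, which use plain totals. Fold changes carry a prior count of 0.125, and SE is approximate (absolute log2 fold change over the root of F). Intervals for depth are not given; totals are in the text.

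The members, lists and rules were chosen with earlier results of these data known. Named genes are 12 fixed ones, the 4 largest interactions of each class (5 CPM or more in the highest group, 10 or more counts in each group, sign kept for every choice of 1 library per group, no predicted genes) and at most 3 called members of each list, those with the largest interactions. Not all are described, and some results are not reported here. Genes listed beside a count of 5 or fewer were picked after seeing their values. Alternatives were other scalings, no filter, DESeq2 1.42.0, a replicate block, leaving out each library, a 1.5-fold minimum per part, the part by point estimate, CPM differences and a prior count of 2. The scripts were tested on simulated data. Promoter windows came from RefSeq on GRCm38.p6, so no coordinates other than theirs are given.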

Additional observations from a re-analysis of the deposited data

Results flagged for a closer look

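The effect of LPS differed between cells with and without DSF, by edgeR's test of the interaction, for 1236 genes called higher and 1981 called lower. In 180 genes the LPS response was called in both states with opposite signs. Of the named genes, 4 are among them. The interaction of the zinc importer gene Slc39a10 was 0.73, with a fall to 0.802 of control under LPS alone and a ratio of 1.33 with the drug. That of the cochaperone gene Chordc1 was -0.64, with an LPS fold of 1.27 alone and a ratio of 0.812 with the drug. Slc39a14 had -1.10 and Tfrc -1.08. The count of 180 fell to 13 without DSF replicate 1, and the part of that library in these calls was not tested further.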

How the results depend on the processing

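Leaving out 1 library at a time gave 717 to 1743 genes called higher and 1269 to 2039 called lower for the interaction. Smaller rises ran from 253 to 436 (higher baseline only), 584 to 913 (lower final level only), 132 to 206 (both parts) and 0 to 9 (neither). Smaller falls ran from 203 to 493 (lower baseline only), 336 to 683 (higher final level only), 89 to 192 (both parts) and 0 to 15 (neither). Larger rises ran from 0 to 3 and larger falls from 1 to 12. With each part required to be at least 1.5-fold, both parts were called for 74 smaller rises and 21 smaller falls and neither for 264 and 242, since the rule leaves fewer parts counted. The smaller rises with neither part were 15 with DESeq2, and the smaller falls with neither 16 without the count filter. Larger rises were 0 with library size alone and 5 without the filter, and larger falls 10 with library size alone. The cause of these moves was not tested.

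As a difference of CPM increments in place of folds, the estimate was positive for Phlda1 (18.24 CPM), Cxcl2 (67.45), Atf3 (71.13) and Egr1 (23.15). The 82 other named genes kept their direction. These are differences of group means with no test. For Cxcl2 the SD of the DSF+LPS libraries was 309 CPM, and for Egr1 those libraries overlapped the libraries with DSF alone. Samples were not treated as paired, and no label says whether replicate numbers pair them. Deviations of same-numbered libraries correlated across genes at -0.19 to 0.16 between groups. With 1 difference of replicates per group, these values cannot exclude a pairing. A replicate block gave 2 larger rises and moved no other count of the classes by over 1.5 times. With 2 libraries a group, changes near the replicate spread are not detectable, and a p that misses the threshold does not show that responses are equal.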

Other observations

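Genes with no call for LPS alone formed a smaller group of interactions. Of 479 such genes with an interaction called lower, 308 fell with LPS after the drug, and the final level was called lower for 417. Of 162 with an interaction called higher, 83 rose with LPS after the drug, and the final level was called higher for 122. Their median interactions of -0.54 and 0.44 were smaller in size than the medians of -0.84 and 0.80 among the smaller rises and smaller falls. The sterol enzyme gene Msmo1 is an example, with 132 and 131 CPM in control, 67.6 and 66.5 with DSF, 147 and 147 with LPS alone, and 58.4 and 47.0 with both (interaction -0.51, SE 0.13, edgeR adjusted p = 0.0114). It lost the call without DSF replicate 1 (adjusted p = 0.064).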
